A study of Rattus norvegicus with 4 samples.

Results

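Calcineurin, NFAT and CaMKII signalling was followed in the rat soleus through 10 genes: the calcineurin subunit genes Ppp3ca, Ppp3cb and Ppp3r1, the calcineurin regulators Rcan1 and Rcan2, the transcription factor genes Nfatc1 and Nfatc3, and the CaM kinase genes Camk2a, Camk2b and Camk2d. Every probe set that the platform annotation pairs with exactly 1 of these symbols was used. That gave 23 of the 31042 non-control probe sets of the array, and 10 of the 14217 genes the annotation names. Of the 23, 18 read above a floor of 78.9 signal units on all 4 arrays, 1 on some of them and 4 on none. All 10 genes had at least 1 probe set above the floor on every array.

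Calcineurin is a phosphatase that calcium and calmodulin switch on when the motor nerve keeps a muscle fibre active. It strips phosphate from NFAT proteins, which then enter the nucleus and, in slow fibres, help to keep slow-fibre genes on; the RCAN proteins bind calcineurin and restrain it. CaMKII is a kinase that the same calcium signal activates, and its isoforms are encoded by separate genes. The soleus is a slow postural muscle with near-continuous nerve activity, so cutting its nerve removes the usual source of this signal.

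The rats were male Wistar animals, 10 weeks old at the start and labelled 14 weeks old at sampling, and were fed for 24 days. The genistein diet was AIN-93G with genistein, a soy isoflavone, at 0.05% (0.5 g per kg of diet); the control diet was AIN-93G with corn oil in place of soybean oil. On day 14 every rat lost the left sciatic nerve and had a sham operation on the right leg, and soleus was taken 10 days later. The 4 groups were genistein diet denervated, genistein diet sham, control diet denervated and control diet sham; each was RNA of 8 rats pooled on 1 array, and the denervated and sham pools of a diet came from opposite legs of the same rats. There are therefore no replicates, and neither tests nor group errors can be given. Differences are read beside the share of all genes that passed the same size, and beside the scatter between probe sets of one gene. That scatter comes from probe sets on the same arrays, so it does not measure the spread between rats, pools or arrays.

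The groups were taken from the sample titles, because the treatment field of 2 of the 4 samples contradicts them. Chrna1, the muscle acetylcholine receptor subunit that rises when a muscle loses its nerve, read 16186 units in denervated and 1589 in sham muscle on genistein, and 20550 in denervated and 1860 in sham muscle on the control diet, which goes with the titles. All 8 slow-fibre markers of the soleus read above the floor on every array. Array medians lay between 120.8 and 132.5 units, and 58.5% to 60.8% of probe sets were above the floor. Actin probes at the 3′ end over those at the 5′ end, which track how intact the RNA is, gave 2.76 in denervated and 2.32 in sham muscle on genistein, and 3.79 in denervated and 2.08 in sham muscle on the control diet. The same ratio of Gapdh ran the other way, at 1.13 in denervated and 1.20 in sham muscle on genistein, and 1.14 in denervated and 1.24 in sham muscle on the control diet. The part of RNA quality in the values below was not tested.

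The first question was how these genes stood in muscle without its nerve. Rcan1 and Nfatc1 had less mRNA in denervated than in sham muscle on both diets, and Rcan2 had more. The calcineurin subunits and the CaMKII genes differed less than 2-fold on their brightest probe sets. With each gene read on its brightest probe set, on genistein 0 of the 10 members reached 2-fold higher in denervated muscle and 2 reached 2-fold lower, beside 4.96% and 6.57% of the 10810 genes measured in that comparison. On the control diet 1 was at least 2-fold higher and 2 lower, beside 5.04% and 7.63% of 10755 genes. The members' median log2 ratio was 0.10 on genistein and 0.00 on the control diet, against 0.02 and 0.00 over all measured genes. Thus the group had no common shift, and the larger ratios belonged to 3 of its genes. When arrays were scaled on the spiked hybridisation controls, 1 member was higher and 1 lower on each diet, and median scaling left 1 higher and 1 lower on the control diet.

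**Figure D1:**
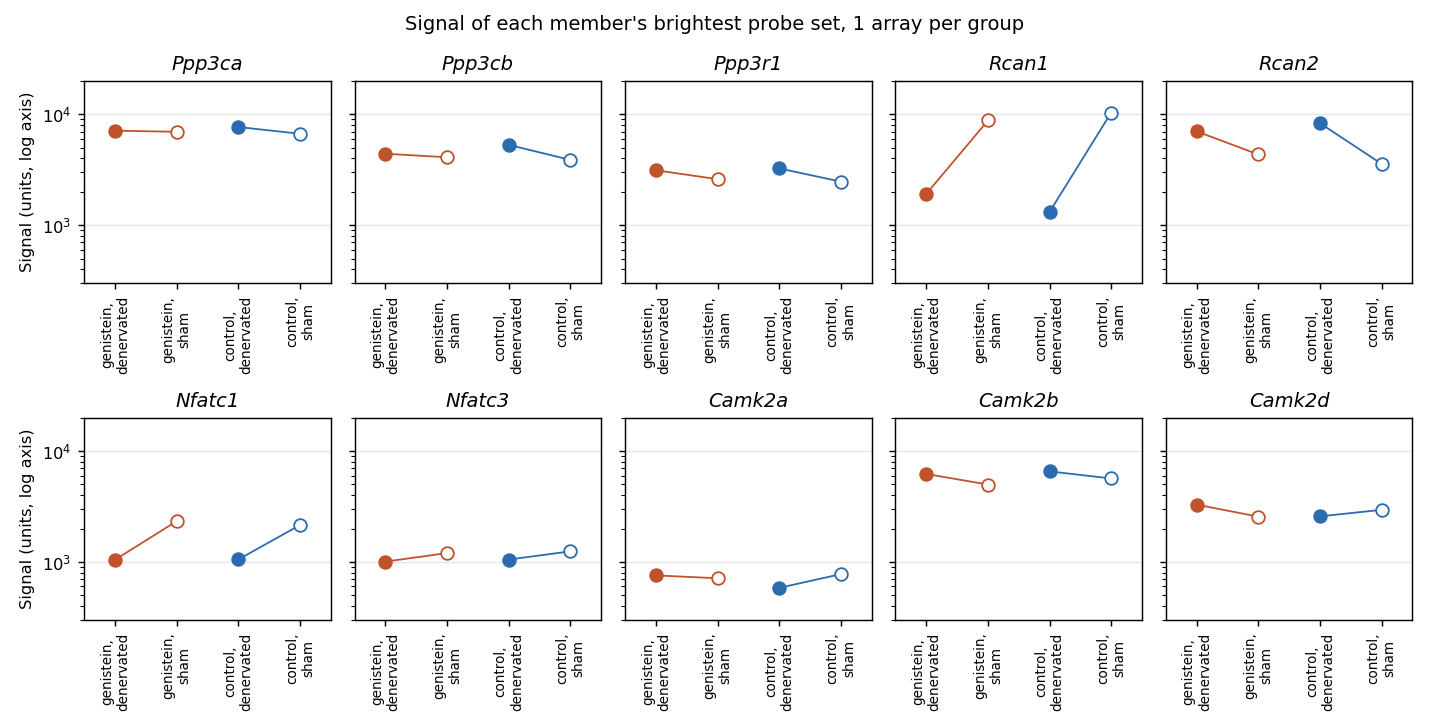
Signal in array units (log axis) of the brightest probe set of each of the 10 genes; each point is 1 array of pooled RNA, filled for denervated and open for sham muscle, orange for genistein and blue for the control diet, and lines join the pools of a diet. Rcan1 is far lower in both denervated pools (1917 and 1317 units) than in the sham pools (8810 and 10374), Nfatc1 is lower in both, and Rcan2 is higher in both.

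Of the calcineurin subunits, Ppp3ca differed least from its sham level on the brightest probe set. Ppp3ca, the alpha catalytic subunit, read 7127 units in denervated and 6964 in sham muscle on genistein, and 7693 in denervated and 6682 in sham muscle on the control diet. Its log2 ratios of 0.03 and 0.20 were smaller than the scatter of probe sets of one gene, which had an SD of 0.36 on genistein and 0.35 on the control diet over 2310 genes. A second Ppp3ca probe set gave 0.35 and 0.24, and a last one was below the floor on all arrays.

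Ppp3cb, the beta catalytic subunit, was the calcineurin gene whose probe sets disagreed most. Its brightest probe set read 4412 units in denervated and 4103 in sham muscle on genistein, and 5304 in denervated and 3885 in sham muscle on the control diet, with log2 ratios of 0.10 and 0.45. The next probe set gave 0.30 and 0.51. The dimmest one went the other way on both diets. It read 599 units in denervated and 1500 in sham muscle on genistein, and 608 in denervated and 1422 in sham muscle on the control diet, with log2 ratios of -1.32 and -1.23. The direction for this gene therefore depends on the probe set, and the mean over its 3 probe sets was -0.31 on genistein and -0.09 on the control diet. Which transcripts each probe set reads was not examined.

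Ppp3r1 encodes calcineurin B, the calcium-binding regulatory subunit. It read 3132 units in denervated and 2601 in sham muscle on genistein, and 3256 in denervated and 2474 in sham muscle on the control diet. Both denervated pools were above both sham pools, by log2 ratios of 0.27 and 0.40, near the scatter between probe sets. A second probe set gave 0.79 and 0.50. The dimmest gave -0.52, a bound because the denervated genistein pool was below the floor, and -0.24.

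Rcan1, whose transcription calcineurin and NFAT are known to raise and whose mRNA is widely used as a readout of that pathway, had the largest ratio of the 10 genes on both diets. It read 1917 units in denervated and 8810 in sham muscle on genistein, 4.60-fold lower, and 1317 in denervated and 10374 in sham muscle on the control diet, 7.88-fold lower. The log2 ratios were -2.20 and -2.98. These were 6.09 and 8.55 times the scatter SD, and placed Rcan1 83rd from the lowest of 10810 genes on genistein and 38th from the lowest of 10755 on the control diet. Over the scalings, floors and probe set rules tried, the ratio stayed between -2.23 and -1.66 on genistein and between -2.98 and -2.60 on the control diet. Rcan1 has only 1 probe set, so no second probe set checks it.

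Rcan2, a relative of Rcan1 first described in human cells as responsive to thyroid hormone, differed in the opposite direction. It read 7024 units in denervated and 4347 in sham muscle on genistein, 1.62-fold higher, and 8328 in denervated and 3572 in sham muscle on the control diet, 2.33-fold higher. Its second probe set read 2852 in denervated and 2056 in sham muscle on genistein, and 3432 in denervated and 1894 in sham muscle on the control diet. On both probe sets both denervated pools were above both sham pools, with log2 ratios of 0.69 and 0.47 on genistein and 1.22 and 0.86 on the control diet. The brightest probe set stood 1162nd from the highest on genistein and 368th on the control diet.

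The split between the 2 regulators does not depend on how arrays are scaled to each other, since any scaling factor of an array cancels. The denervation log2 ratio of Rcan2 exceeded that of Rcan1 by 2.89 on genistein and 4.20 on the control diet. The pair was set side by side after its values were seen.

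The promoters of these 2 genes are shown because they carried the opposite ratios. Promoter sequences, 250 bases before to 50 after the start site, were taken from RefSeq on GRCr8, which matched 8 of the 10 members (not Nfatc1 and Nfatc3). Capitals mark the NFAT core motif GGAAA, read on either strand, so that a match on the other strand appears as TTTCC.
Rcan1, chr11:45118187-45118486, minus strand: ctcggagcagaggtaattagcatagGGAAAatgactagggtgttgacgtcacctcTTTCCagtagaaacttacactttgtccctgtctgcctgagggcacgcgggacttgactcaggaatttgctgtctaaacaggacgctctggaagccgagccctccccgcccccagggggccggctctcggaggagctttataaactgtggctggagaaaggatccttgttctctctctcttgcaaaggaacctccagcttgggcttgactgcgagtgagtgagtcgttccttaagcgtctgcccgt
Rcan2, chr9:24672140-24672439, minus strand: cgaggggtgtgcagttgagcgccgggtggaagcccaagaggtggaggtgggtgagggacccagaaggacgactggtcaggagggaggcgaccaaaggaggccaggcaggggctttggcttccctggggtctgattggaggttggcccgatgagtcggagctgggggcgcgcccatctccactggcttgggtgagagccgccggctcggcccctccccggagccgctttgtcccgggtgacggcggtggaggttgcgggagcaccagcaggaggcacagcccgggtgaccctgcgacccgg

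The Rcan1 window held 2 NFAT core matches, at positions -225 to -221 and -195 to -191 from the start site, and the Rcan2 window held 0. At least 1 such match is present in 62.7% of the 33469 promoters of the same length, and at least 2 in 28.5%, so a count of 2 is common. Between the 2 Rcan1 matches lies a CRE, TGACGTCA, the motif that cAMP-responsive factors bind, at -207 to -200; 1.8% of all promoters hold one, and it was searched for after the sequence was seen. The Rcan1 start site used by RefSeq lies 69.8 kb inside the gene, counted from its outermost 5′ end, and the Rcan2 start 2.0 kb inside. RCAN1 is known in human and mouse to have an internal promoter that answers to calcineurin; whether this window is that promoter was not examined, and the single Rcan1 probe set was not assigned to a transcript. Over the 8 windows, GGAAA was present in 3, the E-box CANNTG in 5 (72.1% of all promoters), and MEF2 motifs and AGGTCA, which oestrogen receptors and other nuclear receptors bind, in 0 (3.3% and 16.2% of all promoters); all were searched on both strands, overlaps included.

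Of the NFAT genes, Nfatc1 was lower in denervated muscle and Nfatc3 differed little. Nfatc1, the NFAT protein best known for following nerve activity in slow fibres, read 1045 units in denervated and 2330 in sham muscle on genistein, and 1051 in denervated and 2149 in sham muscle on the control diet. It was 2.23-fold and 2.04-fold lower, with log2 ratios of -1.16 and -1.03, or 3.20 and 2.96 times the scatter SD. The 2 denervated pools were nearly equal and lay well below both sham pools. Scaling on the spiked controls reduced the ratios to -0.62 and -0.65, below 2-fold, and median scaling also brought the control diet ratio within 2-fold. Nfatc3, another NFAT protein of skeletal muscle, read 1007 units in denervated and 1200 in sham muscle on genistein, and 1050 in denervated and 1244 in sham muscle on the control diet. Its log2 ratios of -0.25 and -0.24 were within the scatter SD, and turned to 0.28 and 0.13 under spike-in scaling. Each of these genes has 1 probe set.

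The CaMKII genes had small ratios that differed between isoforms and probe sets. Camk2b, the beta isoform and with the delta and gamma isoforms a main form in muscle, read 6216 units in denervated and 4987 in sham muscle on genistein, and 6559 in denervated and 5662 in sham muscle on the control diet. Its 2 probe sets were higher in denervated muscle on both diets, by log2 ratios of 0.32 and 0.44 on genistein and 0.21 and 0.49 on the control diet. On the brightest probe set this held under each alternative tried, and no deposited-scale value reached 2-fold.

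Camk2d, the delta isoform, read 3286 units in denervated and 2559 in sham muscle on genistein, and 2577 in denervated and 2949 in sham muscle on the control diet. The ratio was above 0 on genistein (0.36) and below 0 on the control diet (-0.19), and its second probe set gave -0.10 and 0.13, the reverse. Its remaining probe set was below the floor on all arrays.

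Camk2a encodes the alpha isoform, the form that dominates in brain, and also a non-kinase anchoring protein made in muscle. Its brightest probe set read 755 units in denervated and 712 in sham muscle on genistein, and 583 in denervated and 775 in sham muscle on the control diet, with log2 ratios of 0.09 and -0.41. A dimmer probe set read 183 in denervated and 419 in sham muscle on genistein, and 220 in denervated and 410 in sham muscle on the control diet, with ratios of -1.19 and -0.90. The other 2 probe sets, 1 of them at 4.2 to 8.8 units, were below the floor on all arrays. Which probe set reads the kinase and which the anchoring protein was not examined.

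**Figure D2:**
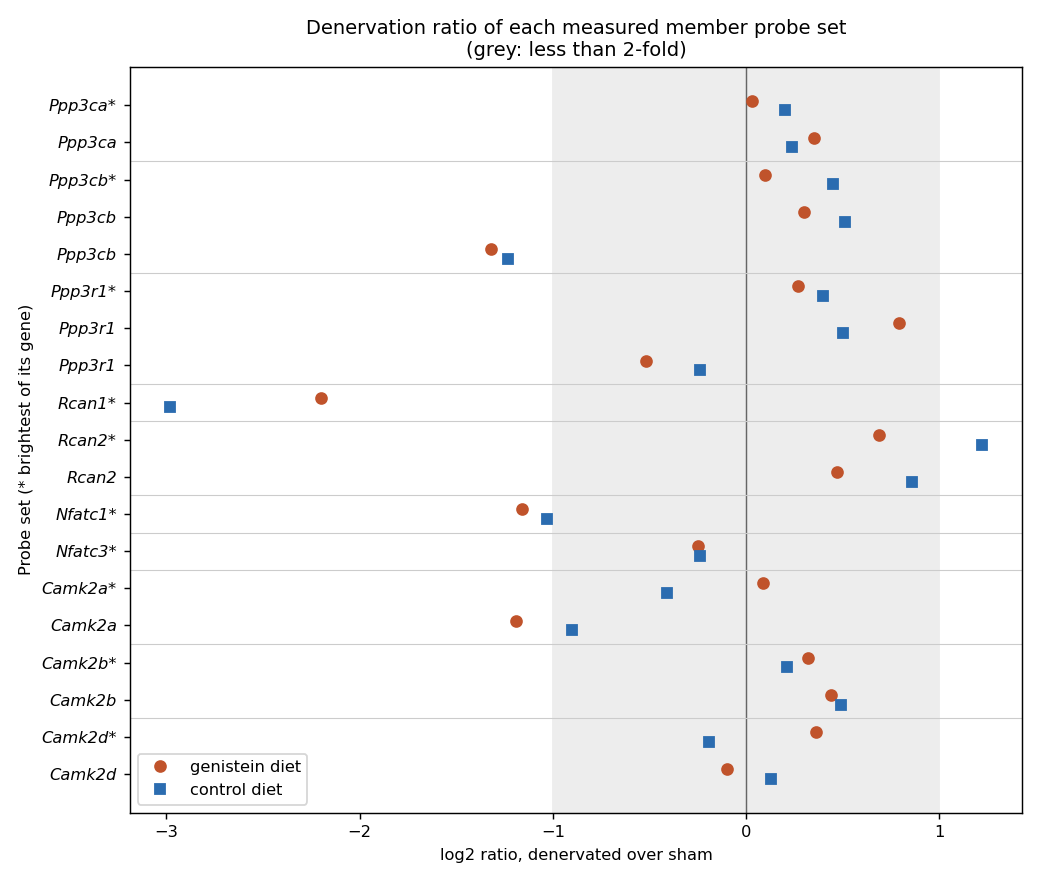
Log2 ratio of denervated over sham signal for the 19 measured probe sets of the 10 genes, 1 row each, with an asterisk on the brightest of a gene; orange circles are the genistein and blue squares the control diet, and the grey band is less than 2-fold. Rcan1 lies far to the left on both diets, and 1 probe set each of Ppp3cb and Camk2a lies apart from the brighter ones of its gene.

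Of the 23 member probe sets, 19 were measured in the denervation comparisons. On genistein 0 were at least 2-fold higher and 4 lower, beside 5.03% and 6.06% of all measured probe sets with 1 symbol. On the control diet 1 was higher and 3 lower, beside 5.04% and 7.1%. The direction was the same on both diets for 16 of the 19 probe sets and for 8 of the 10 genes, beside 79.2% of all genes.

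**Figure D3:**
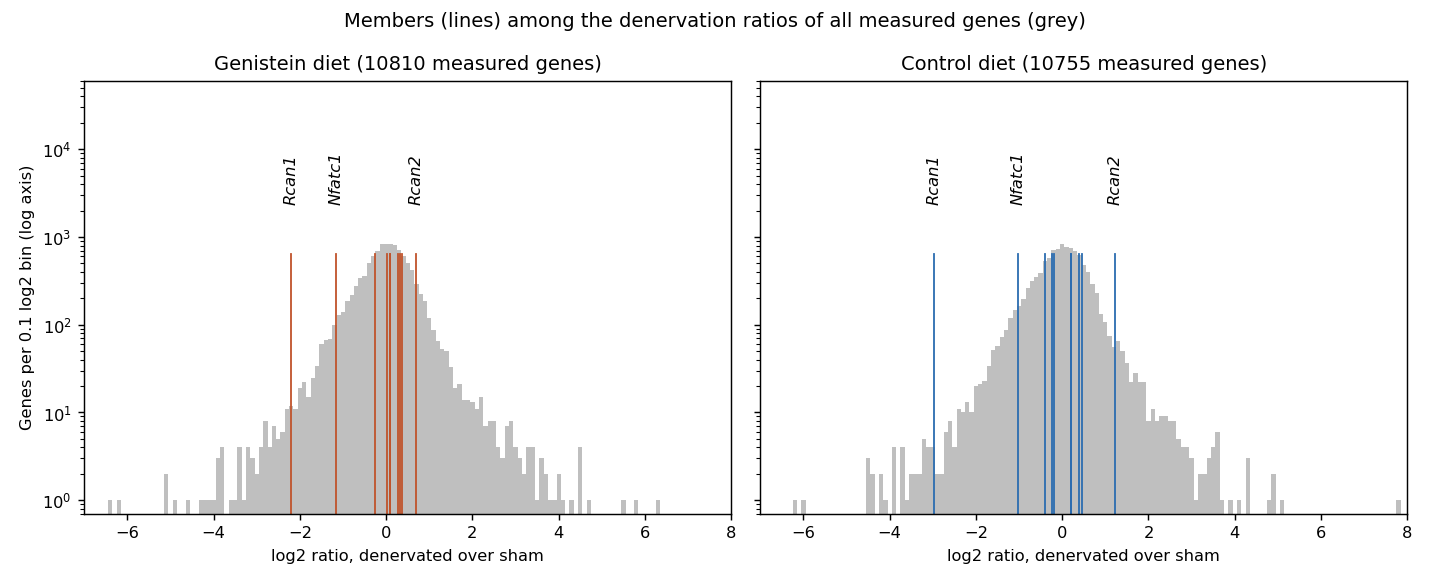
Number of genes (log axis) per 0.1-wide bin of the log2 ratio of denervated over sham signal, genistein diet left and control diet right, with coloured lines at the 10 members. Most members lie under the central peak; Rcan1 lies in the lower tail on both diets (-2.20 and -2.98).

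The next question was whether the genistein diet altered these genes in denervated muscle. Rcan1 was higher in the genistein than in the control pool, and no member differed by 2-fold. At 2-fold, 0 of the 10 members were higher and 0 lower on genistein, beside 1.02% and 0.124% of 10479 genes. Rcan1 read 1917 units on genistein and 1317 on the control diet, a log2 ratio of 0.54, which was 2.21 times the scatter SD of 0.25 and placed it 776th from the highest. The brightest probe sets of Camk2a (0.37) and Camk2d (0.35) were also above 0. The second Camk2d probe set, near the floor, gave 0.22 in the same direction, whereas the second Camk2a probe set gave -0.26. Ppp3cb (-0.27) and Rcan2 (-0.25) were lower on genistein by about 1 scatter SD on their brightest probe sets. Rcan2 was lower on its other probe set too (-0.27), whereas the other Ppp3cb probe sets gave -0.05 and -0.02. The other 5 genes lay between -0.11 and -0.01 on their brightest probe sets. Dimmer ones gave 0.17 for Ppp3ca, 0.25 and a bound of -0.50 for Ppp3r1, and -0.26 for Camk2b. Median scaling lowers the median of all genes by 0.13 in this comparison and spike-in scaling raises it by 0.15; the Rcan1 ratio was 0.41 and 0.69 under these.

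In sham muscle no member differed by 2-fold between diets. Here 0 members were higher and 0 lower at 2-fold, beside 0.324% and 0.287% of 10819 genes. The brightest-probe-set log2 ratios ran from -0.24 for Rcan1, with 8810 units on genistein and 10374 on the control diet, to 0.28 for Rcan2, with 4347 units on genistein and 3572 on the control diet. Among these only Rcan2 passed the scatter SD of 0.26, and its second probe set gave 0.12. The probe sets of Camk2d disagreed in sign, with -0.20 on the brightest and 0.45 on the second, which was near the floor. Their mean was 0.12. The members' median was 0.00, as was that of all genes.

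**Figure D4:**
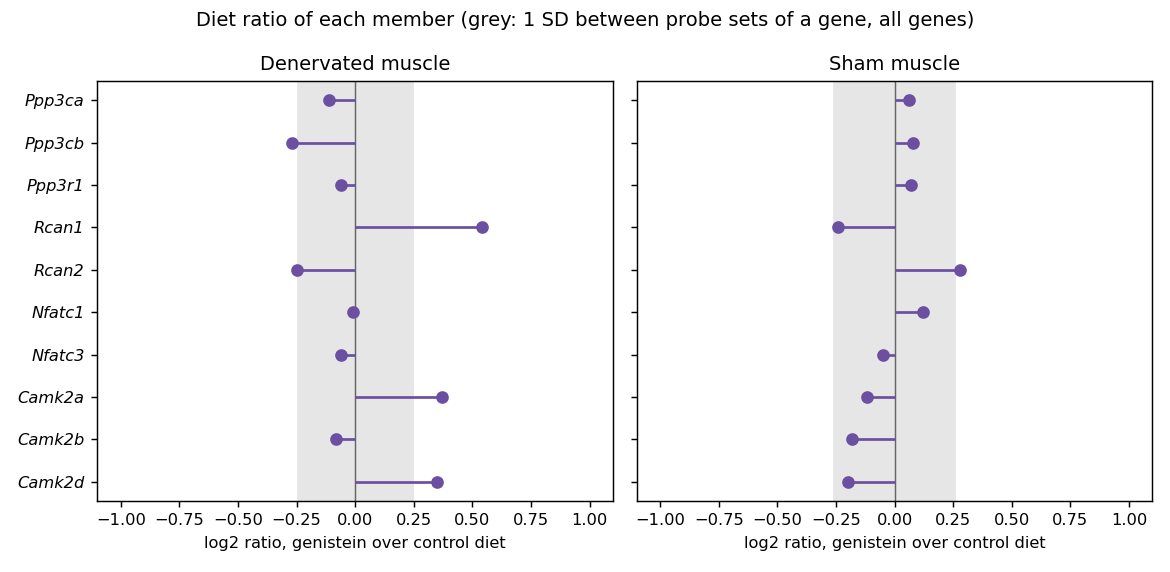
Log2 ratio of genistein over control diet for the brightest probe set of each gene, in denervated muscle (left) and sham muscle (right); the grey band is 1 SD of probe sets about their gene mean. Rcan1, Camk2a and Camk2d pass the band on the right side in denervated muscle only, at 0.54, 0.37 and 0.35.

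Set against each other, the denervation ratios of both regulators were smaller on genistein. The genistein minus control difference of log2 ratios was 0.78 for Rcan1 and -0.53 for Rcan2, the second with -0.39 on its other probe set. These were 2.30 and 1.57 times the scatter SD of 0.34, and stood 476th from the highest and 617th from the lowest of 10414 genes. At a difference of 2-fold, 0 members were higher and 0 lower, beside 2.0% and 0.739% of genes. Over the settings tried the difference ranged from 0.66 to 0.94 for Rcan1 and from -0.64 to -0.37 for Rcan2. Of the 10 members, 6 had a denervation ratio of smaller size on genistein, beside 50.5% of all genes. The pool of denervated muscle from the control diet enters both the diet comparison in denervated muscle and the control diet denervation ratio, so their values for a gene are not independent. With 1 pool per group, whether the diets differ in other rats was not tested.

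The wider pathway was described through 45 further genes, of which 39 are named on the array. Of the 33 measured on genistein, 0 were at least 2-fold higher and 8 lower, with a median of -0.57; of the 35 measured on the control diet, 1 was higher and 7 lower, with a median of -0.51. The shares of all genes are those given above, and the all-gene medians were 0.02 and 0.00. The lists hold sarcomere and Z-disc genes as well as signalling proteins, and some of the largest ratios belonged to the sarcomere genes.

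Among calcineurin regulators and docking proteins, 8 of 12 listed genes were measured, of which 0 were at least 2-fold higher and 3 lower on genistein and 0 higher and 2 lower on the control diet. The medians were -0.84 and -0.53. The lower genes were the calsarcins, Z-disc proteins that bind calcineurin. Myoz3 read 130 units in denervated and 1952 in sham muscle on genistein, and 154 in denervated and 2342 in sham muscle on the control diet, with log2 ratios of -3.91 and -3.92; a dimmer probe set gave -0.65 and -1.07. Myoz2, the slow and cardiac calsarcin, read 16649 units in denervated and 40462 in sham muscle on genistein, and 20382 in denervated and 46360 in sham muscle on the control diet (-1.28 and -1.19). Myoz1, a fast-fibre calsarcin, had ratios of -1.07 and -0.80. Over the settings tried, Myoz2 reached as little as -0.73 and -0.63, and Myoz1 as little as -0.53 and -0.42, both within 2-fold. The list's medians were -0.30 and -0.15 under spike-in scaling, with 3 genes above 0 and 5 below on each diet. Spike-in scaling and quantile normalization each left 1 gene at least 2-fold lower on each diet. Akap6, an anchoring protein that can hold calcineurin, gave -0.86 and -0.53 on its brightest probe set and 1.80 and 2.16 on the other. Ppp3r2 and Akap5 were below the floor on all arrays.

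Among the other NFAT proteins and the kinases and scaffolds that act on NFAT, all 10 listed genes were measured. On genistein 0 were at least 2-fold higher and 2 lower (median -0.16), and on the control diet 1 was higher and 2 lower (0.02). Homer2, a scaffold protein that binds NFAT, read 265 units in denervated and 1008 in sham muscle on genistein, and 307 in denervated and 1168 in sham muscle on the control diet, a log2 ratio of -1.93 on both. Nfatc2 read 236 units in denervated and 522 in sham muscle on genistein, and 227 in denervated and 478 in sham muscle on the control diet. Its log2 ratios of -1.15 and -1.07 were close in size to those of Nfatc1, and its other probe set gave -1.68 and -1.37. Nfat5, the family member that calcineurin does not regulate and that answers to osmotic stress, was higher, at 2930 units in denervated and 1564 in sham muscle on genistein and 3370 in denervated and 1372 in sham muscle on the control diet (0.91 and 1.30). Its other probe set gave 0.37 and 0.55, and with the mean of probe sets Nfat5 was at 0.92 on the control diet and the list held 0 genes at least 2-fold higher. The Nfatc2 ratios came within 2-fold under spike-in scaling, at -0.61 and -0.69. Nfatc4 had ratios of -0.67 and -0.55. The list's median turned to 0.37 and 0.40 under spike-in scaling.

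Among the other CaM kinases and their regulators, 0 genes were at least 2-fold higher or lower as measured above the floor. Of 11 listed, 6 were measured on genistein and 8 on the control diet, with medians of -0.13 and -0.36, the first of which was 0.35 under spike-in scaling. Ppm1f, a phosphatase that acts on CaM kinases, had log2 ratios of -0.31 and -0.69, Camk2g, the gamma isoform, -0.09 and 0.46, and Camk1 0.35 and 0.14. Camkk2, an upstream kinase, was below the floor in both denervated pools, with bounds of -0.57 and -0.51, so that a 2-fold difference could not be read; with the floor at percentile 20 it was at -1.13 on genistein. Calm2, the only calmodulin gene named on the array, was at -0.27 and -0.34, and above 0 under spike-in scaling.

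On their brightest probe sets, muscle genes known to be driven by calcineurin or NFAT were all below 0 in denervated muscle. This held for 9 of 9 measured on both diets, beside 48.3% of all genes on genistein and 50.2% on the control diet. On each diet 0 were at least 2-fold higher and 3 lower. The medians were -0.95 on genistein and -0.73 on the control diet. Quantile normalization left 1 gene above 0 and 2 at least 2-fold lower on each diet, with medians of -0.38 and -0.26; spike-in scaling also left 2 lower on each, and median scaling 2 on the control diet, while the mean of probe sets gave 5 and 4. Myl2, the slow regulatory light chain, had log2 ratios of -2.63 and -2.05, and Slc2a4, the glucose transporter GLUT4, -2.26 and -1.95. Tnni1 and Tnnc1, the slow troponins I and C, were at -1.03 and -1.05 and at -0.95 and -0.82. The measured probe sets of Atp2a2 ran from -1.56 to -0.44 on genistein and from -1.61 to 0.37 on the control diet. This list overlaps the slow-fibre markers, and many other signals act on these genes.

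**Figure D5:**
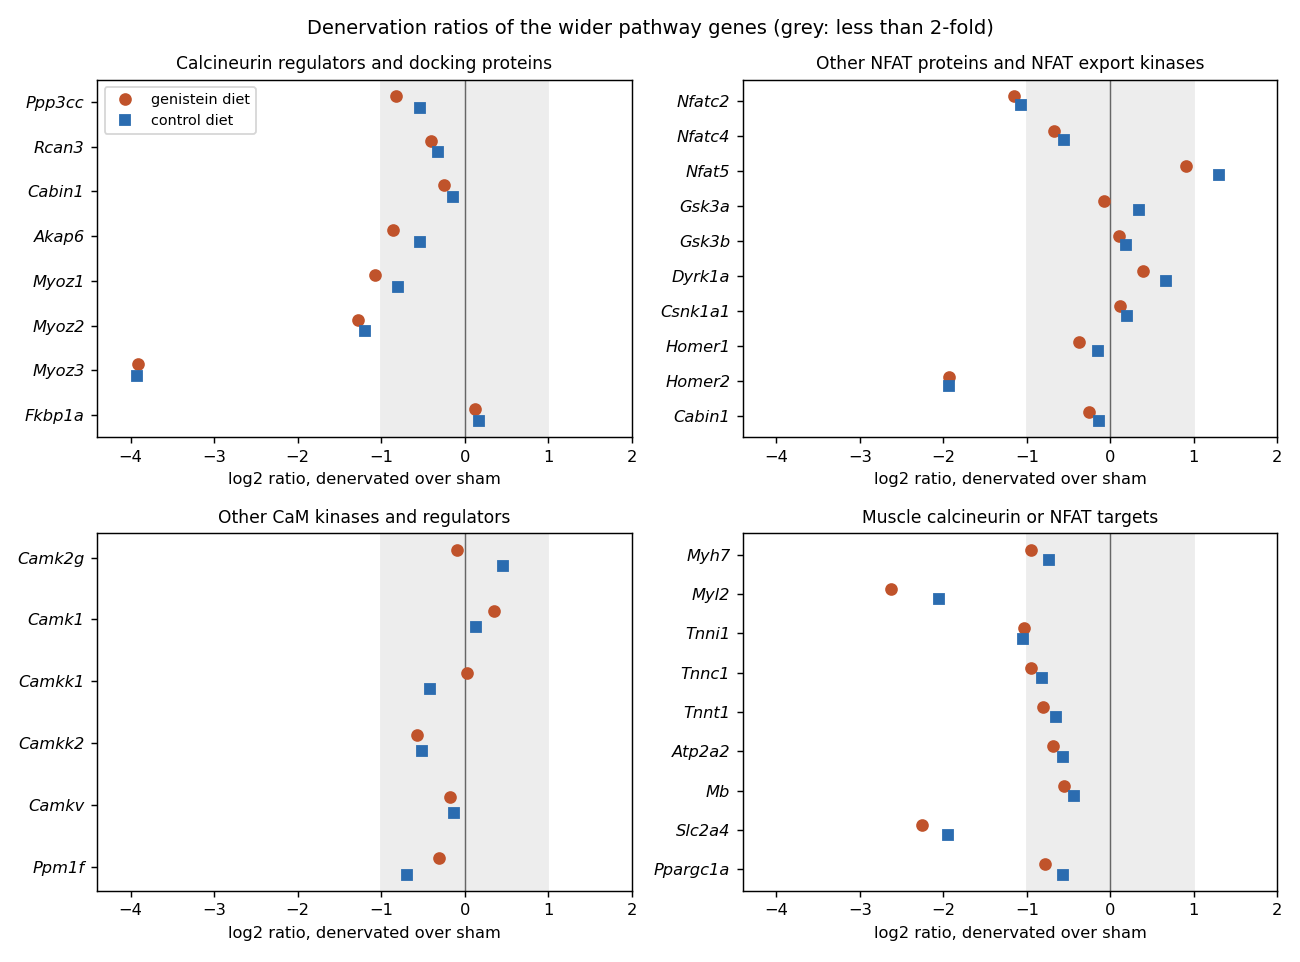
Log2 ratio of denervated over sham signal of the wider pathway genes measured on both diets, by list, for the genistein (orange circles) and control diet (blue squares), with less than 2-fold in grey; the points of Camkk2 on both diets and of Camkv on genistein are bounds. The calsarcins (Myoz1, Myoz2, Myoz3), Homer2, Nfatc2, Myl2 and Slc2a4 lie to the left, and Nfat5 to the right.

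For the 2 members with the largest mean size of log2 denervation ratio over both diets, the genes with the nearest pattern were found by the Euclidean distance over 3 log2 ratios (denervation on each diet and diet in sham muscle), computed from 4 arrays among 9362 genes above the floor on all of them. For Rcan1 these were Myh10, Dok5, Pola2, Hspb7 and Slc47a1, at distances of 0.30 to 0.42; Myh10, the non-muscle myosin heavy chain IIB, had ratios of -2.20, -2.75 and -0.42. For Nfatc1 they were Isca1, Nfatc2, Dusp26, Palld and Slc25a20, at 0.04 to 0.08. Nfatc2 thus lay second nearest to Nfatc1, with ratios of -1.15, -1.07 and 0.13 against -1.16, -1.03 and 0.12. Genes were read on their brightest probe sets here, and the other Nfatc2 probe set gave -1.68, -1.37 and 0.54.

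Whole muscle holds several cell types, and in pooled bulk RNA fewer cells of a type and less RNA per cell cannot be told apart. The 8 slow-fibre markers were all lower in denervated muscle, with summed signals of 131757 in denervated and 286834 in sham muscle on genistein and 160880 in denervated and 314273 in sham muscle on the control diet. The 8 fast-fibre markers summed to 83074 in denervated and 73352 in sham muscle on genistein and to 94405 in denervated and 74333 in sham muscle on the control diet. Of these 8, 3 were at least 2-fold higher and 0 lower on each diet. The shares of all genes were 4.96% higher and 6.57% lower on genistein, and 5.04% and 7.63% on the control diet. Myh4, the fast IIb myosin heavy chain, had log2 ratios of 6.30 on genistein and 7.84 on the control diet, Pvalb, a calcium buffer of fast fibres, 5.77 and 4.93, and Actn3, a fast-fibre Z-disc protein, 2.92 and 5.12. The other 5 lay within 2-fold on their brightest probe sets. Of the 8, 4 were above 0 and 4 below on each diet, with medians of -0.14 on genistein and -0.04 on the control diet. Those below were Myh1 (-0.95 and -0.99), Atp2a1 (-0.86 and -0.29), Casq1 (-0.60 and -0.93) and Tnni2 (-0.36 and -0.38). The highest ratios of a Myh1 probe set were 0.89 and 1.01. Markers of other cells differed with denervation as well. Of all genes, 48.3% were below 0 on genistein and 50.2% on the control diet. Endothelial markers were lower in denervated muscle in 5 of 5 on both diets, with summed signals of 2645 in denervated and 3843 in sham muscle on genistein and 1824 in denervated and 3692 in sham muscle on the control diet. Under spike-in scaling Pecam1 (0.01), Tek (0.13), Vwf (0.19) and Emcn (0.08) were above 0 on genistein. On the control diet no endothelial marker changed sign. Fibroblast markers were lower in 3 of 5 on genistein (31270 in denervated and 38860 in sham muscle) and in 5 of 5 on the control diet (19065 in denervated and 38738 in sham muscle). Smooth muscle markers were lower in 3 of 4 measured on genistein (median -0.61) and in 4 of 4 on the control diet (median -1.23). Macrophage and leukocyte markers were lower in 3 of 6 measured on genistein and 5 of 5 on the control diet, adipocyte markers in 1 of 4 and 2 of 3, and Schwann cell and nerve markers in 0 of 3 and 1 of 3. Spike-in scaling also turned Lum, Smtn, Csf1r and Cd14 above 0 on genistein. On the control diet it did so for Myh11, Pdgfra, Ptprc, Adgre1, Plin1 and S100b. The part of these cells in the Rcan1, Rcan2 and Nfatc1 denervation ratios was not tested.

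The same markers differed between diets in denervated muscle. Fibroblast markers were higher on genistein in 5 of 5 (summed signal 31270 on genistein and 19065 on the control diet), macrophage and leukocyte markers in 5 of 5 measured (1748 and 997) and endothelial markers in 5 of 5 (2645 and 1824). Smooth muscle markers were higher in 4 of 4 measured (1592 on genistein and 1152 on the control diet), with Cnn1 below the floor on all arrays. Adipocyte markers were higher in 4 of 4 (4738 on genistein and 3162 on the control diet), with Lep below the floor, and Schwann cell and nerve markers in 3 of 3 (4408 on genistein and 3314 on the control diet), with Sox10 below it. Of all genes, 50.0% were above 0 in this comparison. The endothelial marker Pecam1 was at only 0.06, and the median of all genes was -0.13 under median scaling. The adipocyte marker Cidec gave a bound (1.06), as the control diet pool was below the floor. The part of these cells in the Rcan1, Camk2a and Camk2d values was not tested.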

How the data were processed

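Biotin-labelled RNA pooled from 8 rats was read on 1 Affymetrix rat array per group. The values the authors deposited are signal intensities on a linear scale. The submitters' processing notes name GCOS 1.1, and no source used here gives a genome build. The mean of each array without the outer 2% of probe sets at each end was 500.0, so the deposited intensities were used as scaled.

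Of 31099 probe sets, 57 controls were set aside; 20826 carry 1 gene symbol, 436 several and 9780 none listed here. All 10 members matched GRCr8 by gene identifier. Signals were raised to the 40th percentile (78.9 units) before log2. A gene counted as measured when an array compared was above it. For the difference of denervation ratios, at least 1 array of each diet had to be above it. A gene was read on its brightest probe set (by mean log2 signal). Log2 ratios were called at 2-fold, with no test. Python 3.11.15, numpy 2.4.6, pandas 2.3.3 and matplotlib 3.10.9 were used, and the ratio code was tested on simulated data. The number of arrays limits the precision.

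The members and lists were chosen with earlier results of these data known. Named were all members, up to 4 genes per list with the largest mean size of log2 denervation ratio, and the 5 nearest genes of 2 members. Other list genes were named where probe sets spread or values lay below the floor. Alternatives covered 3 scalings, 2 floors, log2(signal + 32) without a floor and the mean of probe sets.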

Additional observations from a re-analysis of the deposited data

Results flagged for a closer look

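Camk2a and Camk2d drew attention because their denervation ratios on the brightest probe set had opposite signs on the 2 diets, with 1 array per group; the difference was not tested. Camk2a was at 0.09 on genistein and -0.41 on the control diet, a difference of 0.50, which was 0.10 with the mean of its probe sets. Camk2d was at 0.36 on genistein and -0.19 on the control diet, a difference of 0.55, which was 0.16 with the mean of its probe sets. The second Camk2d probe set, near the floor, had the opposite signs (-0.10 and 0.13). The opposite signs were lost for Camk2a under quantile normalization (-0.01 on genistein) and with the mean of probe sets (-0.55 on genistein), and for Camk2d under spike-in scaling (0.18 on the control diet). Both differences were below 2 scatter SDs.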

How the results depend on the processing

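Spike-in scaling shifted the median of all genes to 0.53 in the denervation comparison on genistein and 0.36 on the control diet, and the members' medians to 0.63 and 0.38. On genistein it gave 1 member at least 2-fold higher and 1 lower, in place of 0 and 2; on the control diet 1 lower in place of 2, as did median scaling. Nfatc1 was the gene that left the 2-fold counts, and Rcan1 kept its direction and passed 2-fold in each of the 7 alternatives. The other counts and medians of the 5 comparisons stayed within 1.5-fold or 1 scatter SD. That scaling moves every gene of a comparison by nearly the same amount, so all 20 member denervation ratios moved by more than the scatter SD. Of 50 single log2 ratios, 7 moved by more than that with the mean of probe sets (values of Ppp3cb, Camk2a and Camk2d), and 0 did under each of the other 5. Of all genes called in the denervation comparisons, 43.0% on genistein and 39.8% on the control diet were higher, against 90.0% and 77.9% under spike-in scaling. In the diet comparison of denervated muscle 89.2% of calls were higher, against 69.3% under median scaling and 79.1% under quantile normalization; for the difference of denervation ratios these were 73.0%, 53.4% and 62.0%, with 88.7% under spike-in scaling. No replicate could be left out, as each group is 1 array. No paired analysis was possible because each group is 1 pool. Probe sets below 78.9 units, 4 of the 23, gave no ratio.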
